A study of Mus musculus with 8 samples.

Results

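The genes described are 10 grouped as ubiquitin-linked feedback regulators of NF-kB: Tnfaip3, Tnip1, Tnip2, Tnip3, Cyld, Traf1, Traf2, Birc3, Tank and Tnfaip2. Tnfaip2 belongs to the group by name, as a TNF-induced gene, and no action of its product on NF-kB is stated here. These 10 genes were taken by name from the deposited table of 23366 genes. All 10 were found and passed the filter on low values that kept 11919 genes. RNA-seq was run on C57BL/6 bone marrow macrophages at passage 1. The 4 groups were Lsd1SA/SA knock-in cells given LPS for 2 h, untreated knock-in cells, wild-type cells given LPS for 2 h, and untreated wild-type cells, with 2 libraries each. Lsd1SA/SA is a knock-in of the histone demethylase LSD1 that the series describes as defective in phosphorylation, LPS is the endotoxin of Gram-negative bacteria, and its dose is printed on the labels as 1 mg/ml, a unit that could not be checked against another source. All cells, controls included, had been kept without serum for 24 h. Whether the 2 libraries of a group are different cultures or mice is not labelled, and p-values here therefore cover library-to-library spread that may be technical.

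NF-kB is held in the cytoplasm by IkB proteins until Toll-like or TNF receptors assemble ubiquitin chains that recruit and activate the IkB kinases. Ligases such as the TRAF and cIAP proteins build these chains, deubiquitinases such as the products of Cyld and Tnfaip3 take them apart, and adaptors such as the ABIN proteins bring the deubiquitinase to the chain. Several of these regulators are themselves NF-kB target genes in macrophages, which closes a negative feedback loop on the inflammatory response.

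Libraries held 40379258 to 55595160 reads, and levels are TMM-scaled CPM, that is, reads relative to a scaled library size. A mean ± SD is of the 2 values in a group (n = 2). A member had 729 to 234663 reads in a library. Of the recovered counts from 1 to below 20, 69.5 to 71.5% were even in each library, so mates of a pair may have been counted separately, and read numbers may then exceed the number of fragments sequenced, which was not tested. The knock-in LPS libraries stood apart from the other 6 in sex-linked transcripts. Xist, the RNA of the inactive X chromosome, was at 0.366 and 0.212 there and at 315 to 437 in the other 6, and 4 Y-linked genes together had at least 4993 reads there and at most 2 reads in any of the other 6. The knock-in LPS libraries therefore carry the transcripts of male cells and the other 6 those of female cells, and in every comparison with knock-in LPS libraries the label and the sex of the animals cannot be told apart. Kdm1a, the gene of LSD1, was at 39.9 ± 0.801 and 33.1 ± 0.795 in knock-in cells with and without LPS, and at 46.5 ± 1.01 and 32.5 ± 1.99 in wild-type cells with and without LPS, which does not test the substitution. All 7 macrophage markers in the table were expressed in every library, led by Lyz2.

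Tnfaip3 encodes A20, the ubiquitin-editing enzyme that ends signalling from TNF and Toll-like receptors. Its level was 68.3 and 70.0 in knock-in LPS libraries and 50.2 and 49.2 in untreated knock-in libraries, against 2219 and 2033 in wild-type LPS libraries and 49.4 and 46.9 in untreated wild-type libraries. Both wild-type LPS libraries stood far above the rest, the knock-in LPS pair lay just above the untreated libraries, and the untreated libraries of the genotypes overlapped.

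The 3 Tnip genes encode the ABIN proteins, which bind ubiquitin chains and, in the case of Tnip1, carry A20 to its substrates. Tnip1 was at 230.1 and 219 in knock-in LPS libraries and 169.7 and 159 in untreated knock-in libraries, against 786 and 842 in wild-type LPS libraries and 161 and 163 in untreated wild-type libraries. Its order of groups was that of Tnfaip3, over a narrower range. Tnip2, whose protein also binds the kinase TPL2, had levels of 30.0 and 30.8 with LPS and 23.1 and 23.7 untreated in the knock-in, against 34.9 and 35.6 with LPS and 24.7 and 26.4 untreated in wild type. The LPS libraries of both genotypes were above all untreated ones, and no group was far from another. Tnip3 had levels of 34.6 and 33.1 with LPS and 55.0 and 50.8 untreated in the knock-in, against 667 and 681 with LPS and 54.3 and 60.6 untreated in wild type. Here the knock-in LPS libraries were the lowest of all 8, and the wild-type LPS libraries the highest.

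Cyld encodes a deubiquitinase that trims ubiquitin chains from TRAF proteins and other substrates. It was at 45.1 and 40.5 in knock-in LPS libraries and 48.1 and 44.8 in untreated knock-in libraries, against 60.8 and 58.8 in wild-type LPS libraries and 50.6 and 50.1 in untreated wild-type libraries. The knock-in libraries with and without LPS overlapped, and the wild-type LPS pair was the highest by a small margin.

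Traf2 and Birc3 encode a RING-domain adaptor and the ligase cIAP2, which act in the same receptor complexes, and Traf1 encodes a TRAF that lacks the RING domain. Traf2 stood at 36.9 and 33.9 in knock-in LPS libraries and 21.3 and 22.4 in untreated knock-in libraries, against 49.9 and 52.7 in wild-type LPS libraries and 20.8 and 18.0 in untreated wild-type libraries. The 2 LPS groups were both above the untreated libraries, with wild type higher. Birc3 stood at 57.7 and 56.9 in knock-in LPS libraries and 49.0 and 48.1 in untreated knock-in libraries, against 302 and 288 in wild-type LPS libraries and 50.3 and 47.0 in untreated wild-type libraries. Traf1 stood at 29.7 and 28.6 in knock-in LPS libraries and 18.7 and 18.8 in untreated knock-in libraries, against 299 and 319 in wild-type LPS libraries and 16.2 and 16.9 in untreated wild-type libraries. For both genes only the wild-type LPS libraries were far from the other 6.

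Tank encodes a TRAF-binding scaffold that links the kinases TBK1 and IKK epsilon to receptors and restrains Toll-like receptor signalling. Its levels were 92.8 and 88.7 with LPS and 48.0 and 45.2 untreated in the knock-in, against 247 and 253 with LPS and 54.8 and 60.5 untreated in wild type. The 4 groups did not overlap, and this was the member with the clearest step in the knock-in. Tnfaip2 is a TNF-induced gene whose product is related to the exocyst and is known for membrane protrusions between cells, and it is not itself a ubiquitin enzyme. Tnfaip2 had levels of 463 and 477 with LPS and 512 and 521 untreated in the knock-in, against 5027 and 5305 with LPS and 503 and 498 untreated in wild type. Wild-type LPS libraries were far above the rest, and the knock-in LPS libraries were the lowest of the 8.

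**Figure D1:**
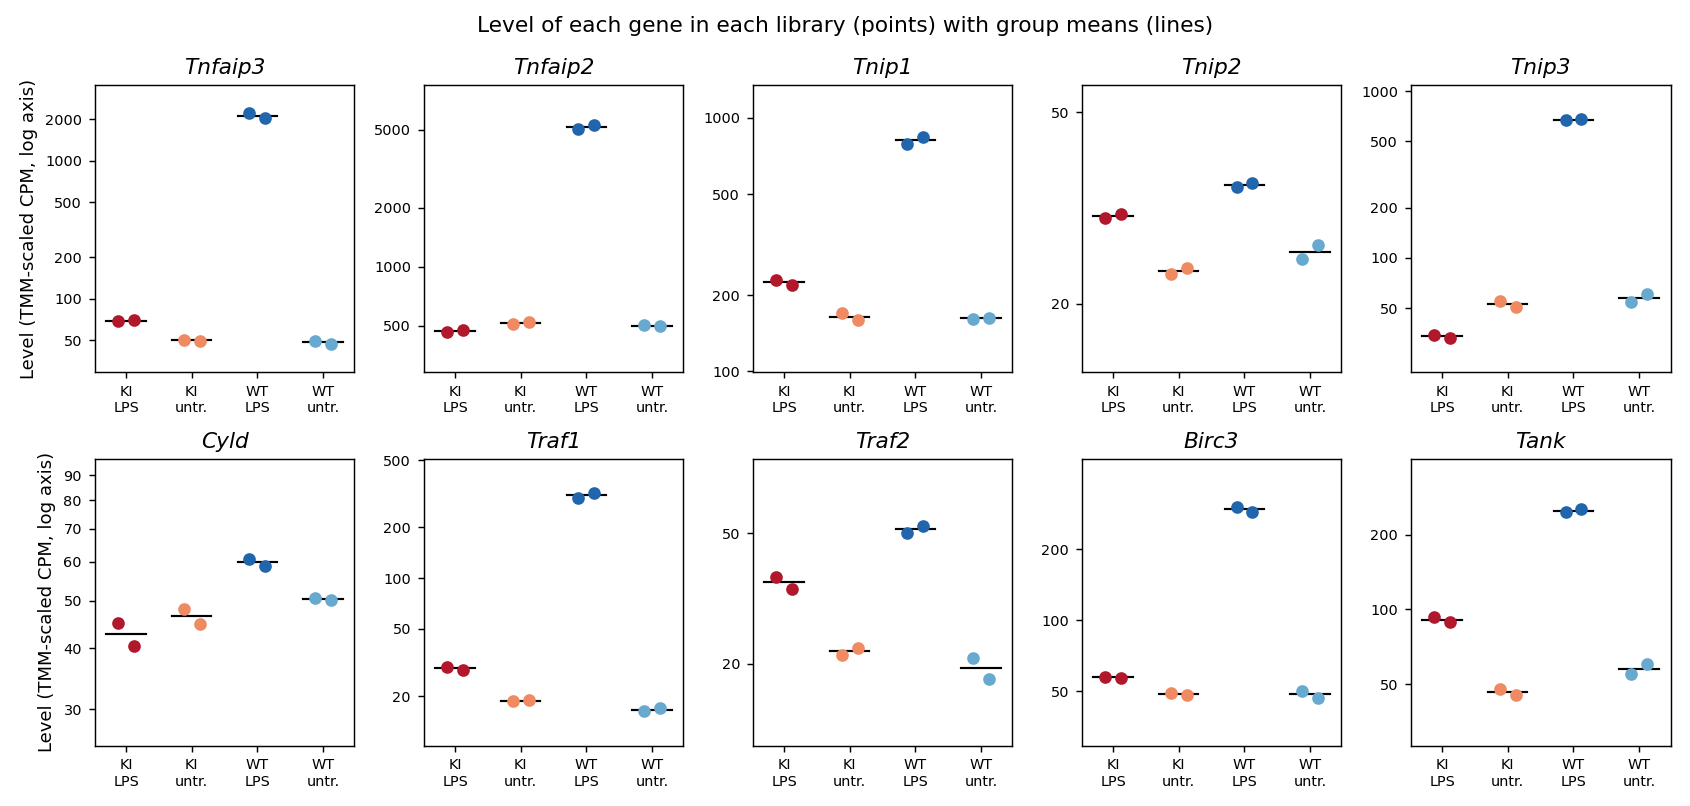
Level of each of the 10 genes in each library (points; log axis, TMM-scaled CPM) with group means (lines), in knock-in (KI) and wild-type (WT) cells with LPS for 2 h or untreated (untr.). The wild-type LPS libraries are the highest for every gene, and the knock-in LPS libraries lie near the untreated ones for most of them, such as Tnfaip3 at 68.3 and 70.0.

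At the deposited scaling, every one of these genes was higher with LPS in wild-type cells, but over a wide range of sizes. The largest increase was that of Tnfaip3, which averaged 2126 ± 131 with LPS and 48.1 ± 1.80 untreated, 44.2-fold by group means (log2 change 5.44, SE 0.052, limma adjusted p = 4.58e-29). Traf1 followed at 18.7-fold (309 ± 14.1 with LPS and 16.5 ± 0.455 untreated), then Tnip3 at 11.7-fold and Tnfaip2 at 10.3-fold. The smallest increases were those of Cyld, 1.19-fold (log2 change 0.24, SE 0.063, limma adjusted p = 0.00208), and Tnip2, 1.38-fold (0.45, SE 0.069, limma adjusted p = 4.72e-06). In this comparison limma called 10 of the 10 members higher and 0 lower, where it called 26.8% of all genes tested higher and 30.7% lower. The median log2 change of the members was 2.45, beside -0.032 over all genes tested.

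Between these ends, Birc3 rose 6.06-fold (295 ± 9.77 with LPS, 48.7 ± 2.33 untreated), Tnip1 5.03-fold (814 ± 39.6 with LPS, 162 ± 0.970 untreated), Tank 4.33-fold (249.8 ± 4.02 with LPS, 57.7 ± 4.02 untreated) and Traf2 2.64-fold (51.3 ± 1.93 with LPS, 19.4 ± 1.98 untreated). Their limma adjusted p was at most 8.73e-14. Genes were ranked by signed log2 change, from the largest rise down to the largest fall. Tnfaip3 ranked 30 among the 11919 genes, Traf1 70, Tnip3 107, Tnfaip2 120, Birc3 198 and Tnip1 232, while Tnip2 ranked 1609 and Cyld 2580. The call of Cyld alone depended on a setting: after quantile normalization its log2 change was 0.10 (limma adjusted p = 0.181), and the alternatives spanned 4.76e-04 to 0.181. Its small rise also rests on the scaling of library size, whose factor in wild type was 0.878 and 0.866 with LPS and 1.07 untreated.

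Marker sums also differed with LPS in wild type. The neutrophil list summed to 780.0 to 799 with LPS and 374 to 385 untreated, with 7 of 9 markers called higher and 0 lower. The mast cell and basophil list summed to 50.9 to 52.1 with LPS and 32.9 to 33.8 untreated, with 5 of 6 tested markers called higher. The macrophage list summed to 15323 to 15735 with LPS and 13172.5 to 13272 untreated (3 higher, 2 lower), the erythroid and megakaryocyte list to 227 to 243 with LPS and 177 to 179.7 untreated, and the dendritic list to at least 49.5 with LPS and 37.5 to 40.3 untreated. The stromal list summed to 16.5 to 17.0 with LPS and 14.6 to 16.04 untreated. Within it Pdgfrb was called higher (3.75 ± 0.292 with LPS, 0.728 ± 0.0473 untreated) and Col1a2 lower (4.73 ± 0.202 with LPS, 6.06 ± 0.356 untreated). The B and T cell list summed to 68.3 to 71.4 with LPS and 69.8 to 70.5 untreated. The part of these shifts in the members' levels was not tested.

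The promoters of the members were read from RefSeq on GRCm38.p6, from 250 bases before to 50 bases after the gene start, because most members rose together with LPS and NF-kB binds known sequences. All 10 members were matched, with 14 windows in all. The NF-kB consensus was found on either strand in a window of 5 of 10 members, and in 4.50% of 32817 promoters of the same length, or 5.14% of 27025 genes with any window counted. The letters GGNNTTTCC were found in 6 of 10 members and in 5.83% of those promoters, or 6.62% of those genes, and the 2 motifs overlapped each other in Tnfaip3, Tnip3, Cyld and Tank. A match is a run of letters and was not tested for binding, and no match concerns only these letters in this window. The 5 windows below are shown because they pair the sequence with the response: 3 genes with large LPS changes in wild type and matches near the start, Cyld with a match and the smallest change, and Traf1 with no match and an 18.7-fold change. Capitals mark matches to either motif.

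Tnfaip3: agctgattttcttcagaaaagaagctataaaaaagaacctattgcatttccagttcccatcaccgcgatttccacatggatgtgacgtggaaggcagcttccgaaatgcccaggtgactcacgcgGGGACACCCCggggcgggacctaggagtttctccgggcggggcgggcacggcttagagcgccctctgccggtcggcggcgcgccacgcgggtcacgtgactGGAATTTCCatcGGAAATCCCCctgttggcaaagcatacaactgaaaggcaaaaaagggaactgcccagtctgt
Tnip1: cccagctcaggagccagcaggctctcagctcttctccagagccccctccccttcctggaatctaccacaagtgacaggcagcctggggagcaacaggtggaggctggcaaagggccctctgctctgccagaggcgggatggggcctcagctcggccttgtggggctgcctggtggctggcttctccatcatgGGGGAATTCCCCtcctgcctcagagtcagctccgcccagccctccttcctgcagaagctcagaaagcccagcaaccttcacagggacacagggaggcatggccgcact
Tnip3: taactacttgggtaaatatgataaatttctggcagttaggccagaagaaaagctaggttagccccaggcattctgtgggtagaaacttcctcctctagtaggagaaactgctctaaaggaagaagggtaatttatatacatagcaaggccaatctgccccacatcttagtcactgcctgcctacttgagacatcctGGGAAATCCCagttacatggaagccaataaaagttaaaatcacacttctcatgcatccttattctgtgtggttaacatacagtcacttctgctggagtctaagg
Cyld: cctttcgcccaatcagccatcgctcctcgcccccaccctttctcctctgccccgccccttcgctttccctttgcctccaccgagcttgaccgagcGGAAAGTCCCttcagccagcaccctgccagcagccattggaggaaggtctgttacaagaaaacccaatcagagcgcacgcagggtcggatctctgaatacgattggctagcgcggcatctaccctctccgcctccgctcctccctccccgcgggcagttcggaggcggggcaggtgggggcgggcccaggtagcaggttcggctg
Traf1: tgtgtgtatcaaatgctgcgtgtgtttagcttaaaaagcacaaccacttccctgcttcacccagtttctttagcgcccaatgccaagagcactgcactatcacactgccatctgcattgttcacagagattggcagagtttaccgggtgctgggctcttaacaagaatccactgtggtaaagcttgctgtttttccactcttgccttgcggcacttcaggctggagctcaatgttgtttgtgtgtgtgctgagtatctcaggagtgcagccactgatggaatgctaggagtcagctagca

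These windows lie at chr10:19015361-19015660, minus strand, for Tnfaip3, at chr11:54962891-54963190, minus strand, for Tnip1, at chr6:65590148-65590447, plus strand, for Tnip3, at chr8:88696778-88697077, plus strand, for Cyld, and at chr2:34961723-34962022, minus strand, for Traf1. Counting back from -1 just before the gene start, Tnfaip3 had matches at -125 to -116, -24 to -16 and -12 to -3, the last shared by both motifs. The annotation gives Tnfaip3 a further start, whose window held neither motif. For Tnip1 and Tnfaip2 the last bases of the window were found in no GENCODE vM21 transcript of the gene, so their positions rest on the RefSeq start alone. Tnip1 had a run of overlapping consensus matches from -58 to -47, Tnip3 a match at -54 to -45 and Cyld at -155 to -146. Tnfaip2 had the shorter letters at -87 to -79, Traf2 at 33 to 41 past the start, and Tank both motifs in the windows of 2 of its 4 starts. Tnip2, Birc3 and Traf1 had neither. Members with a match thus included the largest and the smallest LPS response, and members without one included Traf1 and Birc3, which rose 18.7-fold and 6.06-fold in wild type.

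In the libraries labelled knock-in LPS the changes with LPS were 0.640-fold to 1.95-fold, and their direction was mixed. Tank rose most, 1.95-fold (90.8 ± 2.93 with LPS and 46.6 ± 1.97 untreated; log2 change 0.95, SE 0.056, limma adjusted p = 6.31e-13), ahead of Traf2 at 1.62-fold (35.4 ± 2.11 with LPS and 21.8 ± 0.823 untreated) and Traf1 at 1.55-fold (29.2 ± 0.767 with LPS and 18.8 ± 0.0672 untreated). Tnfaip3, first in wild type, rose 1.39-fold here (69.1 ± 1.25 with LPS and 49.7 ± 0.706 untreated; log2 change 0.47, SE 0.052, limma adjusted p = 4.33e-08). Tnip3 fell to 33.9 ± 1.11 with LPS, against 52.9 ± 2.96 untreated (log2 change -0.63, SE 0.058, limma adjusted p = 2.17e-09). In all, 7 of 10 members were called higher and 2 lower, where 28.5% of all genes tested were higher and 28.3% lower. The median log2 change of the members was 0.41, beside 0.016 over all genes tested.

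The other rises were those of Tnip1 (1.37-fold, 225 ± 7.52 with LPS and 164 ± 7.48 untreated), Tnip2 (1.30-fold, 30.4 ± 0.497 with LPS and 23.4 ± 0.444 untreated) and Birc3 (1.18-fold, 57.3 ± 0.533 with LPS and 48.5 ± 0.632 untreated), with limma adjusted p of at most 7.06e-04. Tnfaip2 was the other member called lower, at 470.0 ± 9.91 with LPS and 517 ± 6.72 untreated (log2 change -0.14, SE 0.046, limma adjusted p = 0.0138). That call was lost without knock-in LPS replicate 1 (limma adjusted p = 0.115) and without untreated knock-in replicate 2 (0.0919), and the alternatives spanned 0.00457 to 0.115. Cyld did not pass, at 42.8 ± 3.28 with LPS and 46.5 ± 2.33 untreated (log2 change -0.12, 95% interval -0.25 to 0.012, limma adjusted p = 0.115), but it passed without knock-in LPS replicate 1 (log2 change -0.20, limma adjusted p = 0.0392, with alternatives from 0.0392 to 0.682).

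The marker sums of other cell types moved with the same libraries. The 9 stromal markers summed to 57.2 to 57.3 in knock-in LPS libraries and 17.8 to 19.7 in untreated knock-in libraries, led by Col1a2 and Col1a1. The 7 mast cell and basophil markers summed to 80.8 to 82.8 with LPS and 33.1 to 34.0 untreated in the knock-in, with Mcpt4 at 0 in every library, and 9 neutrophil markers to 512 to 522 with LPS and 372 to 383 untreated. The 6 dendritic markers summed to 4.90 to 5.50 with LPS and 34.9 to 37.7 untreated, nearly all of it Itgax, and 7 macrophage markers to 11835 to 12468 with LPS and 13070.3 to 13802 untreated. Of the macrophage markers 4 were called lower with LPS, and Csf1r and Mertk were not called. Fcgr1 was called higher (913 ± 20.7 with LPS and 287 ± 1.77 untreated). The 7 B and T cell markers summed to 43.0 to 45.4 with LPS and 65.4 to 67.4 untreated, almost all Cd4, and 6 erythroid and megakaryocyte markers to 159.8 to 168 with LPS and 186 to 191 untreated, almost all Pf4. The part of these shifts in the members' levels was not tested, and in bulk RNA fewer cells of a type and less RNA per cell cannot be told apart. Of 2 cytokine genes checked for an LPS response, Tnf was at 48.6 ± 0.138 with LPS and 26.6 ± 0.238 untreated in the knock-in, and Il1b at 1.48 ± 0.419 with LPS and 1.47 ± 0.295 untreated.

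**Figure D2:**
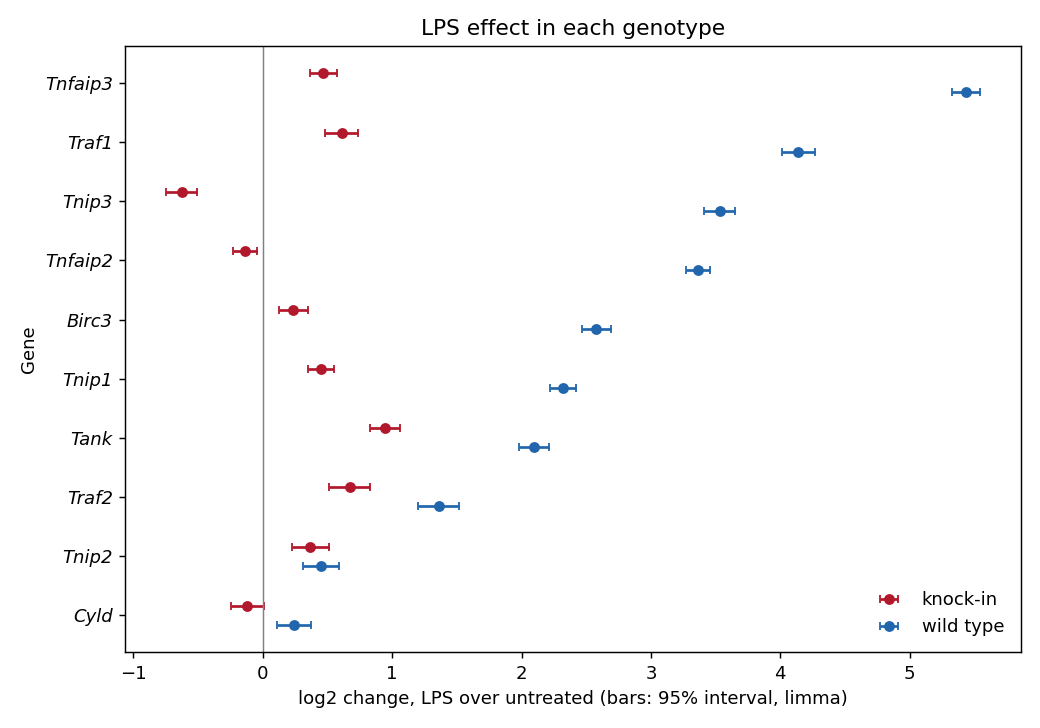
log2 change with LPS over untreated for each gene (limma, all 8 libraries), with 95% intervals as bars, in knock-in (red) and wild-type (blue) cells. The wild-type points run from 0.24 for Cyld to 5.44 for Tnfaip3, while the knock-in points lie between -0.63 for Tnip3 and 0.95 for Tank.

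Whether the LPS effect differed between genotypes was tested on the difference between the 2 LPS effects, knock-in less wild type. It was smaller in the knock-in for 9 of 10 members and larger for 0, where 31.8% of all genes tested had a lower and 31.8% a higher effect. The difference was -4.97 for Tnfaip3 (SE 0.073, limma adjusted p = 8.78e-25), -4.16 for Tnip3, -3.53 for Traf1, -3.50 for Tnfaip2, -2.34 for Birc3, -1.87 for Tnip1 and -1.15 for Tank on the log2 scale. Differences were small but called for Traf2 (-0.69, SE 0.107, limma adjusted p = 5.95e-06) and Cyld (-0.36, SE 0.089, limma adjusted p = 0.00120). Tnip2 did not pass, with a difference of -0.084 and a 95% interval of -0.28 to 0.12 (limma adjusted p = 0.467). As fold changes, LPS gave 0.640-fold to 1.95-fold over the members in the knock-in, with a median of 1.33-fold, and 1.19-fold to 44.2-fold in wild type, with a median of 5.55-fold.

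Without LPS, the members' levels in the knock-in were 80.9 to 113% of those in wild type, and limma called 0 of 10 higher and 0 lower, with 3 of 10 at an unadjusted p under 0.05. Over all genes tested it called 0.00839% higher, which is 1 gene, and 0% lower, while 1617 genes had an unadjusted p under 0.05. edgeR also called 1 gene in all, and DESeq2 called 64. limma called 12 genes with the 4 untreated libraries alone and 483 without untreated wild-type replicate 1. Tank came nearest, at 46.6 ± 1.97 in the knock-in and 57.7 ± 4.02 in wild type (log2 change -0.30, 95% interval -0.42 to -0.18, limma adjusted p = 0.0627). It was lower in both knock-in libraries than in either wild-type library. DESeq2 called Tank (adjusted p = 0.00248), and so did limma without wild-type LPS replicate 1 (0.0451), wild-type LPS replicate 2 (0.0463) or untreated wild-type replicate 1 (0.00139), and the alternatives spanned 0.00139 to 0.680. Traf1 was at 18.8 ± 0.0672 in the knock-in and 16.5 ± 0.455 in wild type (log2 change 0.17, 95% interval 0.043 to 0.30, limma adjusted p = 0.243), and Traf2 at 21.8 ± 0.823 in the knock-in and 19.4 ± 1.98 in wild type (0.16, 95% interval 0.0079 to 0.32, limma adjusted p = 0.345). The remaining 7 members had log2 changes of -0.12 to 0.046 and limma adjusted p of at least 0.378.

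With LPS in both genotypes, every member was lower in the libraries labelled knock-in, which also differed in sex. Tnfaip3 stood at 3.25% of its wild-type LPS level (69.1 ± 1.25 in the knock-in and 2126 ± 131 in wild type; log2 change -4.92, SE 0.052, limma adjusted p = 2.82e-28). Tnip3 stood at 5.02% (33.9 ± 1.11 in the knock-in and 674 ± 9.63 in wild type), Tnfaip2 at 9.10% (470.0 ± 9.91 in the knock-in and 5166 ± 196 in wild type) and Traf1 at 9.45% (29.2 ± 0.767 in the knock-in and 309 ± 14.1 in wild type). Birc3 stood at 19.4%, Tnip1 at 27.6% and Tank at 36.3%. The members nearest to wild type were Traf2 at 69.0%, Cyld at 71.6% and Tnip2 at 86.3%. limma called 10 of 10 members lower and 0 higher, where 36.8% of all genes tested were lower and 38.5% higher. The median log2 change was -2.10, beside 0.023 over all genes tested. The call of Tnip2 (log2 change -0.21, limma adjusted p = 0.00923) was lost without knock-in LPS replicate 1 (0.0598), and the alternatives spanned 0.00246 to 0.0598. This comparison shares its libraries with both LPS comparisons, and so is not independent of them. Marker sums of other cell types differed here too: the stromal list summed to 57.2 to 57.3 in knock-in LPS libraries and 16.5 to 17.0 in wild-type LPS libraries, the mast cell and basophil list to 80.8 to 82.8 in the knock-in and 50.9 to 52.1 in wild type, and the neutrophil list to 512 to 522 in the knock-in and 780.0 to 799 in wild type. Within the neutrophil list 6 markers were called lower in the knock-in, among them Ngp, S100a9 and Ltf, which carry most of the sum, and 3 were called higher, namely Mmp8 (61.7 ± 0.926 in the knock-in and 30.5 ± 0.114 in wild type), Elane and Cxcr2. The dendritic list summed to 4.90 to 5.50 in the knock-in and at least 49.5 in wild type, and the macrophage list to 11835 to 12468 in the knock-in and 15323 to 15735 in wild type. Of the macrophage markers 5 were called lower and 2 higher, and Fcgr1 was at 913 ± 20.7 in the knock-in and 257 ± 3.23 in wild type. The B and T cell list summed to 43.0 to 45.4 in the knock-in and 68.3 to 71.4 in wild type, and the erythroid and megakaryocyte list to 159.8 to 168 in the knock-in and 227 to 243 in wild type. Of the 2 B and T cell markers tested, Cd4, which carries almost all of that sum, was called lower. Cd79a was called higher (1.16 ± 0.0834 in the knock-in and 0.489 ± 0.0196 in wild type). Of the 7 stromal markers tested, 5 were called higher in the knock-in, and Pdgfrb and Thy1 were called lower. Of the 6 mast cell and basophil markers tested, 3 were called higher in the knock-in and 1 lower. Prss34 carried most of that sum (53.0 ± 2.83 in the knock-in and 26.3 ± 0.648 in wild type). Kit was the lower one (1.40 ± 0.0422 in the knock-in and 3.59 ± 1.04 in wild type). The part of these lists in the result was not tested. Tnf averaged 48.6 ± 0.138 in the knock-in and 3977 ± 87.3 in wild type, and Il1b 1.48 ± 0.419 in the knock-in and 2202 ± 164 in wild type.

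**Figure D3:**
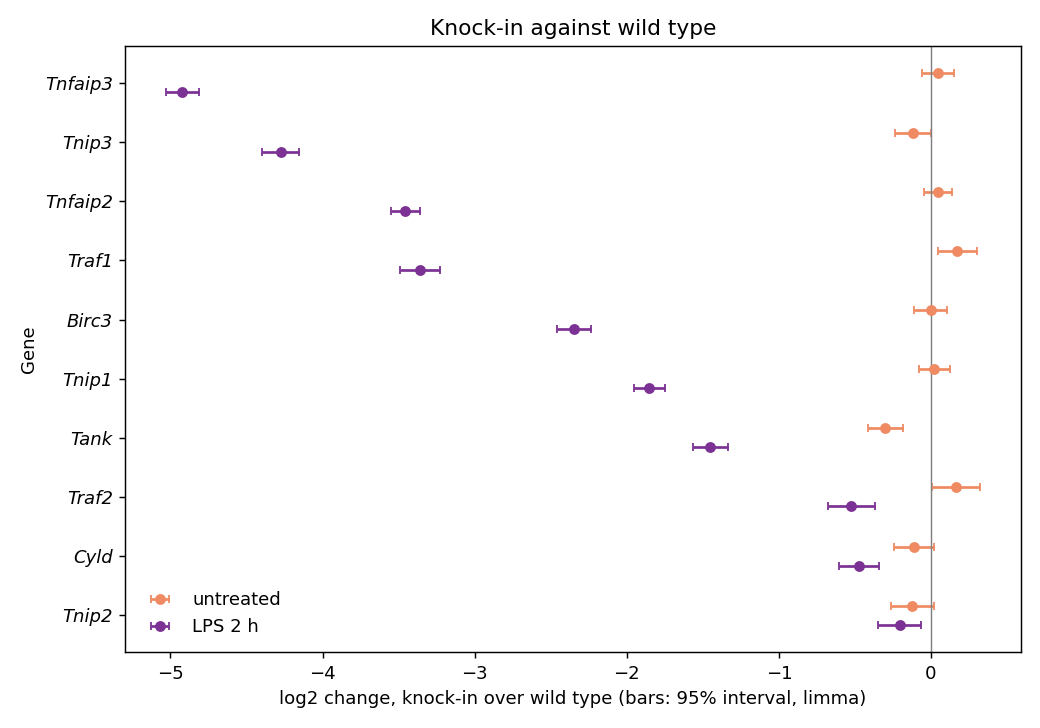
log2 change of knock-in over wild type for each gene (limma), with 95% intervals as bars, untreated (orange) and with LPS for 2 h (purple). Untreated points lie between -0.30 for Tank and 0.17 for Traf1, and points with LPS run from -4.92 for Tnfaip3 to -0.21 for Tnip2.

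By the distance between their log2 profiles over the 8 libraries, each centred on its mean, the nearest pair was Tnip1 and Birc3 (0.517), followed by Tnip1 and Tank (0.558) and by Tnip2 and Cyld (0.588). Tnfaip2 and Tnip3 were also close (0.885), and both were lowest in the knock-in LPS libraries. Members of 1 gene family differed in the size of their response: Tnip3 rose 11.7-fold, Tnip1 5.03-fold and Tnip2 1.38-fold in wild type, and Traf1 rose 18.7-fold and Traf2 2.64-fold. The genes outside the set nearest to Tnfaip3 were Ifnb1 (distance 0.140), Nlrp3 (0.502), Tnfsf4 (0.503), Cd40 (0.526) and Ccrn4l (0.554). Ifnb1 averaged 0.514 with LPS and 0.0230 untreated in the knock-in, and 44.2 with LPS and 0 untreated in wild type. Tnfsf4 averaged at most 0.364 outside the wild-type LPS libraries, so the distances of both genes are set by the pseudocount of 1 and do not compare fold changes. Nlrp3, the inflammasome sensor, averaged 40.2 with LPS and 31.9 untreated in the knock-in, and 1692 with LPS and 32.5 untreated in wild type. Nearest to Tnip3 was Fzd1 (0.306), then Malt1 (0.363), which encodes a paracaspase of NF-kB signalling, and Cd14 (0.430), the LPS co-receptor. Fzd1 averaged at most 2.10 outside the wild-type LPS libraries, so the pseudocount of 1 also shapes its distance. Nearest to Tank was Baz1a (0.188). These distances describe 8 libraries and were not tested.

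The other genes of the pathway, 38 of 38 tested, had a median nearer to 0 than these regulators in both LPS comparisons, a difference that was not tested. In wild type 24 were higher and 6 lower with LPS, with a median log2 change of 0.29, and in the knock-in 15 were higher and 5 lower, with a median of 0.11. Over all genes tested 26.8% were higher and 30.7% lower in wild type, and 28.5% were higher and 28.3% lower in the knock-in. Of 16 ligases, conjugating enzymes and partners, 10 rose and 1 fell in wild type. Peli1, a ligase of IRAK signalling, rose most (369 and 368.3 with LPS, 35.2 and 36.8 untreated, log2 change 3.32, limma adjusted p = 8.30e-25), followed by Traf3 (1.30), Birc2 (1.09), the paralogue of Birc3 that encodes cIAP1, and Ube2n (0.62), the enzyme that makes the chains used by TRAF proteins. In the knock-in 8 rose and 2 fell. Rnf31, the catalytic subunit of the linear ubiquitin ligase LUBAC, rose most (77.6 ± 0.146 with LPS and 41.5 ± 0.327 untreated, log2 change 0.89, limma adjusted p = 3.13e-11), while Traf3 (0.42) and Sharpin (0.40), another LUBAC subunit, rose and Xiap (-0.41) fell.

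Of 11 ubiquitin readers and deubiquitinases, 8 rose and 1 fell in wild type. The autophagy receptor gene Sqstm1 led (log2 change 2.13), with Optn (1.09), Spata2 (0.76), which links Cyld to LUBAC, and Tab2 (0.66), a chain-binding partner of the kinase TAK1. In the knock-in 4 rose and 0 fell, namely Sqstm1 (0.53), Usp25 (0.51), Otud5 (0.48) and Spata2 (0.42). Of 11 kinases and partners, 6 rose and 4 fell in wild type, with Ikbke, the gene of IKK epsilon, at 1.33, and Tab1 (-1.87), Map3k14 (-0.76) and the TBK1 adaptor Tbkbp1 (-0.66) lower. In the knock-in 3 rose and 3 fell, near the share over all genes tested, with Azi2, a further TBK1 adaptor, at 0.71, Tbkbp1 at 0.28, and Tab1 and Map3k14 both at -0.24. Tbkbp1 was called higher in the knock-in and lower in wild type, and the difference was itself called (0.94, limma adjusted p = 1.65e-09).

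With LPS, 20 of these 38 genes were lower and 13 higher in the knock-in than in wild type, with a median log2 change of -0.20, where 36.8% of all genes tested were lower and 38.5% higher. Those furthest down were Peli1 (-3.02), Traf3 (-0.92), Xiap (-0.81) and Birc2 (-0.70) among ligases, Sqstm1 (-1.41), Optn (-1.24), Tab2 (-0.80) and Tax1bp1 (-0.40), a partner of A20, among readers, and Ikbke (-1.13) and Ikbkb (-0.56) among kinases. Of the 13 higher genes, Tab1 (1.81) and Tbkbp1 (1.00) were furthest up. Among ligases and partners 4 were higher, including the LUBAC genes Rnf31 (0.60), Rbck1 (0.48) and Sharpin (0.47). Untreated, limma called 0 of the 38 in either direction, with an unadjusted p under 0.05 for 2 of 16 ligases and partners, 6 of 11 readers and deubiquitinases and 1 of 11 kinases and partners, where 13.6% of all genes tested had one. edgeR and DESeq2 were not tabulated for these 38 genes.

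**Figure D4:**
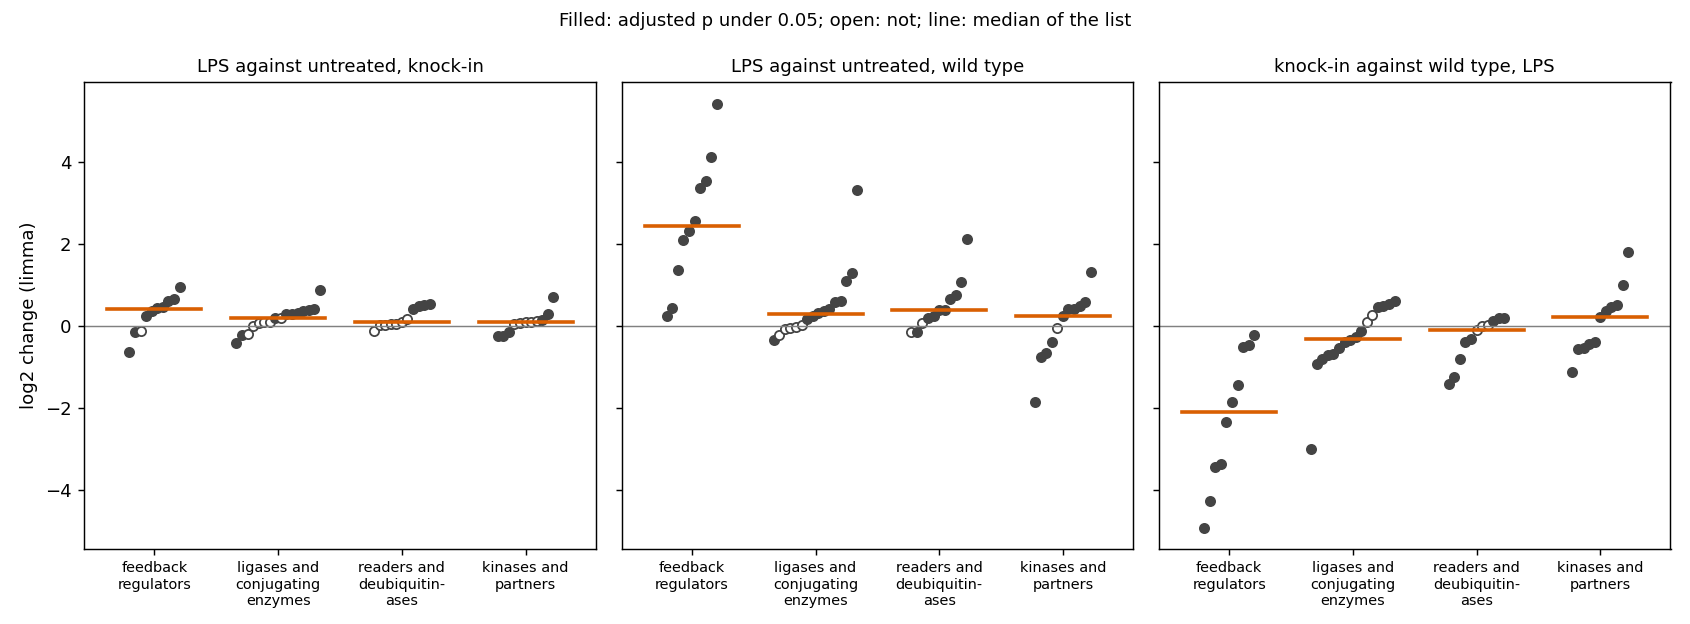
log2 change of each gene (points; filled where limma's adjusted p was under 0.05) for the 10 genes grouped as feedback regulators and 3 lists of other pathway genes, with LPS over untreated in the knock-in (left) and wild type (middle), and knock-in over wild type with LPS (right). Lines are medians: for the regulators they lie at 0.41, 2.45 and -2.10, and for the other lists between -0.31 and 0.39.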

How the data were processed

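RNA-seq of 8 libraries was used, 2 in each of 4 groups taken from the sample labels. The authors deposited a single table of signal values per gene and library. The tools named, per the submitters' processing notes, are edgeR, bedtools and TopHat2 2.0.9, with the mm9 build, and the sources used here do not state how reads were counted, the strand setting, the annotation or any filter. From the values, the deposited signal has the form of read counts divided by a scaled library size (TMM-scaled CPM): all values above 0 were whole multiples of 1 read, within a tolerance of 0.001, which gave the library totals. If mates were counted separately, these totals are above the number of fragments. These are not raw counts, so log2(value + 1) was fitted with limma 3.58.1 under R 4.3.3 (eBayes, variance trend, 2-sided tests) for the 11919 genes that reached 1 in 2 or more libraries. The model had a mean for each group and used all 8 libraries, leaving 4 residual degrees of freedom. eBayes added 19.1 prior degrees of freedom drawn from the spread of all genes tested, and the p-values rest on both. A call means an adjusted p under 0.05, by Benjamini-Hochberg over all those genes, separately for the 5 comparisons. Fold changes by group means are ratios of the deposited values, and log2 changes understate low genes. On the recovered reads, edgeR 4.0.16 (quasi-likelihood test) and DESeq2 1.42.0 were alternatives, beside other pseudocounts, filters and scalings, a replicate block and leaving out libraries. The fit was also run on simulated counts with few changed genes, a setting unlike these data, so that run does not show how well the calls hold here.

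The members and the lists were chosen with earlier results of these data known. Named genes are the 10 members, up to 4 genes with the largest absolute log2 change from each of 3 pathway lists, the genes nearest to a member by profile, and a few checks of the libraries. Fam105b in the table was read as Otulin and Emr1 as Adgre1. Exons of Tnfaip2 overlap an antisense gene on GENCODE vM21, which uses another build than the files, so with strand not stated its reads are uncertain to that extent. Depth was 40379258 to 55595160 reads a library. Replicates differed by more than the sampling noise of reads.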

Additional observations from a re-analysis of the deposited data

Results flagged for a closer look

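Each of 9 members had an LPS effect that differed between the genotypes by the interaction in limma. The difference between the 2 effects, knock-in less wild type on the log2 scale, was -4.97 for Tnfaip3, -3.50 for Tnfaip2, -1.87 for Tnip1, -4.16 for Tnip3, -0.36 for Cyld, -3.53 for Traf1, -0.69 for Traf2, -2.34 for Birc3 and -1.15 for Tank. The knock-in LPS libraries also differed from the other 6 in Xist (0.366 and 0.212 there, 315 to 437 in the others) and in Y-linked reads (at least 4993 there, at most 2 in the others). The label and the sex of the animals cannot be told apart.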

How the results depend on the processing

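Of 910 member values under alternatives, 897 kept their direction and their side of the threshold, 4 lost a call and 5 gained one, all given with the results above, and 4 changed sign. The sign changes were all in knock-in against wild type without LPS: Birc3 was at 0.0060 on the log2 scale after quantile normalization and at -0.051 to 0.045 over leave-one-out fits, and Tnip1 at -0.025 to 0.068 over them. In that comparison the number of genes called in all, 1 in the report, was 2 with a pseudocount of 5, 0 with no filter, 64 by DESeq2, 2 when both knock-in LPS libraries were dropped and 12 with the 4 libraries of the comparison alone, and 1 to 483 with a library left out, 483 being without untreated wild-type replicate 1. Members called lower there were 1 (Tank) by DESeq2 and 0 to 1 with a library left out. Members called lower with LPS in the knock-in were 1 to 2 with a library left out. The cause of these changes was not tested. The interaction called the same number of members lower, 9, in every leave-one-out fit, and knock-in against wild type with LPS called 9 to 10 lower. In wild type 46.6% of all LPS calls were higher with the deposited scaling and 35.4% after quantile normalization, with 9 of 10 members called there. Same-numbered libraries of 2 groups deviated from their group means with correlations of -0.0837 to 0.0891. No shared effect of the replicate number was thus seen, but these correlations cannot tell whether the samples were paired. The replicate block left the members called at 10 higher with LPS in wild type, 7 higher and 2 lower in the knock-in, 10 lower in the knock-in against wild type with LPS and 9 lower in the interaction, and changed no call of a member. Members had at least 729 reads in a library.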
